A study of Homo sapiens with 4 samples.

Results

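The zinc finger genes of chromosome 19 were taken as the protein-coding genes of that chromosome whose symbol is ZNF followed by a number. The rule used only names and positions and found 249 genes among the 61541 genes of the deposited table. By gene start (GRCh38) they were placed in 4 windows, with 84 genes under 24 Mb, 39 from 24 to 43 Mb, 27 from 43 to 51 Mb and 99 above 51 Mb. RNA was sequenced from MHCC97H, an established hepatocellular carcinoma line. The control cells (shCon, 2 libraries) carried a control shRNA, and the knockdown cells (shUBXN1, 2 libraries) were transduced with an shRNA against UBXN1, an adaptor of the ATPase p97/VCP that binds ubiquitin chains. No source used here gives the time after transduction, and all 4 libraries came from 1 cell line. The labels do not say whether the replicates were separate cultures, so the p-values measure the spread between these libraries, which may be technical.

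Most of these genes encode C2H2 zinc finger proteins, in which a row of short fingers, each folded around a zinc ion, reads DNA bases. Many also carry a KRAB domain at the N-terminus, which binds TRIM28 (KAP1). TRIM28 in turn brings SETDB1, heterochromatin proteins and histone deacetylases to the bound DNA, and this silences transposable elements and some genes. The genes arose largely by tandem duplication and lie in clusters on chromosome 19, where their own gene bodies are known to be covered by heterochromatin marks that ZNF274 and SETDB1 help to lay down.

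Some of the genes share a short run in their coding sequence. The 24-base run in the coding frame that was held by more members than any other codes for the conserved linker between neighbouring fingers. It is shown as the most widely held run, although 208 of the 249 genes do not hold it. The capitals mark the codons of the linker itself (TGEKP), and the codons after it open the next finger.
Linker run: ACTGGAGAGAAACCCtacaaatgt
The run occurred 151 times in the coding sequences of 41 of the 249 genes, up to 16 times in ZNF208. It was found on the sense strand of 16.5% of the members' transcripts, 7.52% of those of 266 ZNF genes of other chromosomes and 0.0154% of those of 19452 other protein-coding genes. It was unevenly placed, with 36 of the 41 genes starting under 24 Mb. The proteins held a median of 12 C2H2 fingers, from 0 in the readthrough products ZNF625-ZNF20 and ZNF816-ZNF321P to 39 in ZNF729, and 212 of the 249 had a KRAB-like box.

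The targeted gene was checked first. UBXN1 stood at 67.1 and 77.3 CPM (normalised read counts, scaled to a common library size) in shCon and at 16.8 and 18.5 CPM in shUBXN1. The groups did not overlap, and the log2 fold change was −2.03 ± 0.10 (SE, n = 2 per group, adjusted p = 9.98e-10, edgeR quasi-likelihood test). Libraries held 23373700 to 27380508 counts. Of 11 liver markers, KRT8 and KRT18 were abundant in all libraries and HNF4A ranged from 46.9 to 61.8 CPM, while GPC3 was at 0 and APOA2 reached 0.0427 CPM in 1 library only. Of 8 markers of other cell types, CD3E was at 0 and PTPRC at most 0.171 CPM, CD68 lay at 70.5 to 88.3 CPM and PECAM1 at 33.2 to 43.03 CPM. Of the 9 liver markers tested, ALB (log2 fold change −1.97), TTR (−3.08), HNF4A (−0.30) and KRT8 (−0.44) fell, SERPINA1 (0.40) and KRT18 (0.31) rose, and AFP, APOA1 and EPCAM did not pass the test. Of the 4 tested, CD68 (−0.25) fell, PECAM1 (0.35) and COL1A1 (3.11, at most 2.52 CPM) rose and VWF did not pass the test, while COL1A2 and ACTA2 were, like CD3E and PTPRC, too low to test. The part of these changes in the results below was not tested. Fewer cells expressing a gene and less RNA per cell cannot be told apart in these bulk samples.

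The zinc finger genes were higher in UBXN1-knockdown cells far more often than lower. Enough counts for a test were found for 181 of the 249, and 91 of these (50.3%) rose while 12 (6.63%) fell at an adjusted p under 0.05. The other 78 did not pass the test. Over all 16863 genes tested, 28% were called higher and 28.2% lower. Their log2 fold changes had a median of 0.42, against 0.02 over all genes, and 138 of the 181 were above 0. At the study's threshold of a fold change of 2 with an unadjusted p under 0.05, 26 of the 181 were higher and 3 lower. Over all 16863 genes these numbers were 1997 (11.8%) and 1027 (6.09%). The members' share of higher calls was thus nearer to that of all genes than at the adjusted p threshold. The typical member moved by less than 2-fold. The 68 genes not tested had at most 35 counts summed over the 4 libraries, and 24 of them had none.

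The summed level of the group was higher as well. The CPM of all 249 genes summed to 2231 and 2226 in shCon and to 2831 and 2805 in shUBXN1, a ratio of 1.26. The sums of all 4 windows were higher in both knockdown libraries. Their ratios were 1.19 under 24 Mb, 1.22 from 24 to 43 Mb, 1.45 from 43 to 51 Mb and 1.27 above 51 Mb. Over all genes the ratio was 0.943, and for the ZNF genes of other chromosomes it was 1.09. Under 24 Mb the mean sum went from 384.0 to 457.3 CPM, and ZNF121 alone went from 46.65 to 92.78 CPM. The number of lower calls depended on the settings. With all 4 libraries kept, it was 7 in place of 12 with total count scaling and with limma, and 8 with DESeq2. The higher calls were then 95, 80 and 72. The number of lower calls also changed when 1 library was left out.

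**Figure D1:**
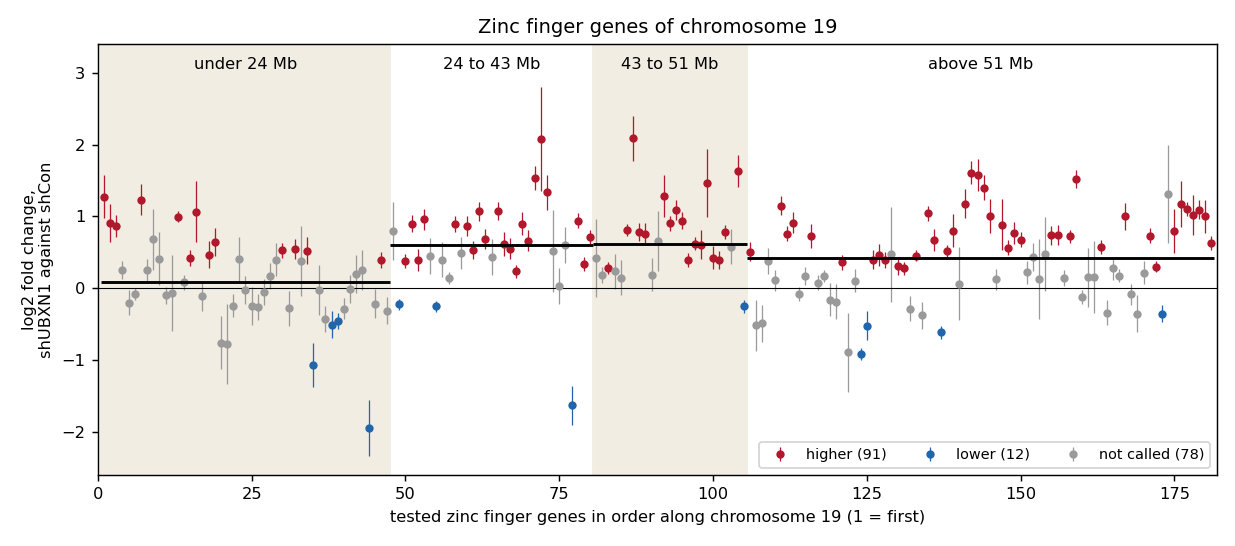
Log2 fold change (shUBXN1 against shCon, y axis) of the 181 tested zinc finger genes in their order along chromosome 19 (x axis). Points are genes, bars are 1 SE, colours give the call, and black lines are the window medians of 0.08, 0.60, 0.62 and 0.41 from left to right. The 91 higher calls outnumber the 12 lower ones.

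The windows differed in how many genes rose. Under 24 Mb, 13 of 47 tested genes were higher and 4 lower, close to the 28% and below the 28.2% over all genes, with a median of 0.08. From 24 to 43 Mb, 21 of 33 were higher and 3 lower (median 0.60), and from 43 to 51 Mb, 17 of 25 were higher and 1 lower (median 0.62). Above 51 Mb, 40 of 76 were higher and 4 lower (median 0.41). The difference between windows was not tested. The median under 24 Mb was 0.03 when no filter on low counts was applied, 0.15 with at least 10 counts in every library, and −0.01 without shUBXN1 replicate 2, so it had no stable sign.

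Within the windows the genes lie in physical clusters, set apart here wherever neighbouring starts were more than 1.5 Mb apart. Beside the counts below, 28% of all genes tested were called higher and 28.2% lower. Among clusters with over 10 tested genes, the highest shares were in those from ZNF302 to ZNF573 (34.7 to 37.7 Mb), where 18 of 26 tested genes rose and 1 fell, and from ZNF574 to ZNF296 (42.1 to 45.1 Mb), where 18 of 25 rose and none fell. In the latter the lowest of the 25 log2 fold changes was 0.15 and the highest 2.08. At the end of the long arm, from ZNF628 to ZNF446 (55.5 to 58.5 Mb), 31 of 52 rose and 2 fell. The cluster just before it, from ZNF175 to ZNF331 (51.6 to 53.5 Mb), had a lower median of 0.17, with 9 of 24 higher and 2 lower. On the short arm, 5 of 14 tested genes rose from ZNF557 to ZNF846 (7.1 to 9.8 Mb) and 3 of 14 from ZNF653 to ZNF791 (11.5 to 12.6 Mb), and none of either fell. The large cluster next to the centromere, from ZNF101 to ZNF254 (from 19.7 Mb on), had 37 genes of which 17 were tested, with 3 higher, 4 lower and a median of −0.03. In the order along the chromosome, 27 tested genes in a row from ZNF780A to ZNF114 had a value above 0, and 20 of them were called higher. The 24 genes from ZNF575 to ZNF296 fall in a region around 43 to 46 Mb where 23 were tested, 16 rose and none fell (median 0.62).

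The linker run was spread unevenly over these calls, which over all genes tested were 28% higher and 28.2% lower. Under 24 Mb, 17 tested genes held the run and 30 did not. Of those with it, 2 were higher and 4 lower (median −0.22), and of those without it, 11 were higher and none lower (median 0.26). All 4 genes called lower in that window, ZNF100, ZNF93, ZNF430 and ZNF714, held it. Outside that window only 5 tested genes held it. The run was chosen for the number of members that hold it and not for these values, and genes that hold it also lie close together, so sequence and place cannot be told apart here.

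Other genes of chromosome 19 changed as well. Of 796 tested protein-coding genes that are not members, 305 were higher and 230 lower, with a median of 0.12. They include unnamed genes that share exon bases with members, such as ENSG00000267022 with ZNF284 and ENSG00000267552 with ZNF607. The members and these neighbours are therefore not fully separate sets. Under 24 Mb these neighbours were lower more often than higher (153 and 109 of 394, median −0.14). Above 51 Mb 37 of 73 were higher and 8 lower, with a median of 0.52 against 0.41 for the zinc finger genes there. With the GC trend removed this order turned, to 0.39 for the neighbours and 0.41 for the zinc finger genes. From 24 to 43 Mb the neighbours had a median of 0.21, and 77 of 168 (45.8%) were higher and 43 lower. From 43 to 51 Mb their median was 0.38, and 82 of 161 (50.9%) were higher and 26 lower. Both medians were below those of the members, but both shares of higher calls were above the 28% over all genes. Among 217 tested ZNF genes of other chromosomes, 88 rose and 28 fell (median 0.16), and of 12534 protein-coding genes of other chromosomes 3612 rose and 4104 fell (median −0.03). Of 18 chromosome 19 genes of related families named ZFP, ZSCAN, ZIM, ZIK, ZBTB or PEG3, 5 were tested. ZFP14 (log2 fold change 1.15), ZSCAN22 (0.73) and ZBTB45 (0.52) rose and ZBTB7A (−0.39) fell.

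Under 24 Mb the highest risers were ZNF554, ZNF699, ZNF846 and ZNF121. ZNF121 (chr19:9560329-9584504, minus strand) was the most abundant of these, with 46.1 and 47.2 CPM in shCon and 95.6 and 89.9 CPM in shUBXN1. The groups were far apart, and its log2 fold change was 0.99 ± 0.08 (SE, adjusted p = 8.31e-08, edgeR). ZNF699 went from 2.63 and 2.98 CPM to 6.87 and 6.28 CPM, a log2 fold change of 1.23 ± 0.22 (adjusted p = 2.32e-04, edgeR). ZNF554 went from 1.61 and 1.32 CPM to 3.39 and 3.72 CPM, a log2 fold change of 1.27 ± 0.30. ZNF846 was near 1 CPM throughout and shares 12.04% of its exon bases with an unnamed gene of the same strand. Its log2 fold change was 1.06 ± 0.43 (adjusted p = 0.0461, edgeR). Its call was lost without any 1 of the 4 libraries, with adjusted p from 0.0534 to 0.226, and with DESeq2 (0.143).

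The genes that fell under 24 Mb all came from the cluster next to the centromere. ZNF100 (chr19:21722771-21767579, minus strand) had 2.48 and 2.21 CPM in shCon and 0.525 and 0.683 CPM in shUBXN1, a log2 fold change of −1.95 ± 0.39 (adjusted p = 6.77e-04, edgeR). ZNF93 (chr19:19900913-19963464, plus strand), known as a repressor of LINE-1 retrotransposons, had 3.75 and 2.85 CPM in shCon and 1.78 and 1.37 CPM in shUBXN1. The libraries did not overlap and its log2 fold change was −1.07 ± 0.31, but the adjusted p was 0.108 without shCon replicate 1. ZNF714 fell from 21.2 and 19.1 CPM to 14.3 and 14.99 CPM (log2 fold change −0.46). ZNF430 had a log2 fold change of −0.51, and its adjusted p of 0.031 (edgeR) rose to 0.104 with DESeq2, 0.0725 with total count scaling, 0.0926 with limma, 0.0649 with the GC trend removed and 0.157 without shUBXN1 replicate 1; it was also above 0.05 without either shCon library, at 0.0706 and 0.0831. ZNF708 had the smallest value of the window, −0.01 ± 0.19.

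From 24 to 43 Mb the leading genes were ZNF570, ZNF571, ZNF420 and ZNF850, all in the cluster from ZNF302 to ZNF573. ZNF570 (chr19:37467585-37488652, plus strand) had 4.01 and 3.92 CPM in shCon and 12.4 and 10.6 CPM in shUBXN1. This was 2.89-fold, with a log2 fold change of 1.53 ± 0.17 (adjusted p = 3.19e-06, edgeR). ZNF420, known as Apak, a negative regulator of p53, had 7.84 and 7.75 CPM in shCon and 15.7 and 17.1 CPM in shUBXN1, with no overlap and a log2 fold change of 1.07 ± 0.13. ZNF850 with 30 fingers and ZNF571 with 16 had log2 fold changes of 1.07 and 1.34. ZNF540, named after its values were seen, reached 2.07 ± 0.73 but stayed under 0.5 CPM in every library.

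The most abundant zinc finger gene went the other way. ZNF146 (chr19:36214602-36238771, plus strand), which encodes a protein made almost only of fingers, had a mean of 100.1 TPM (transcript level per length and library size) over the 4 libraries. It had 179.1 and 177.9 CPM in shCon and 144.4 and 154.7 CPM in shUBXN1, with no overlap and a log2 fold change of −0.26 ± 0.07 (adjusted p = 0.00836, edgeR). The call was lost without either shCon library, with adjusted p of 0.0645 and 0.117. ZNF507 (log2 fold change −0.23, adjusted p = 0.0227, edgeR) lost its call with DESeq2 (0.0595), total count scaling (0.0856), limma (0.127), with the GC trend removed (0.108) and without shCon replicate 1 (0.109), shCon replicate 2 (0.137) or shUBXN1 replicate 1 (0.0706). ZNF573 was the least changed, at 3.08 and 3.02 CPM in shCon and 3.15 and 3.08 CPM in shUBXN1.

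The neighbours ZNF780A and ZNF780B moved in opposite directions. The copies lie side by side on the minus strand, at chr19:40069152-40090943 and chr19:40028260-40056231. Their proteins are identical at 566 of 834 alignment columns (67.9%), where columns with a gap count as differences. ZNF780A rose from 19.7 and 19.03 CPM to 41.1 and 33.1 CPM (log2 fold change 0.94 ± 0.11). ZNF780B fell from 7.88 and 6.47 CPM to 1.62 and 3.03 CPM, a log2 fold change of −1.63 ± 0.27 (adjusted p = 1.39e-04, edgeR). Counts were fractional in all 4 libraries for ZNF780B and in 2 for ZNF780A, and how reads were shared between features is not given in the sources used here. Both share some exon bases with the unnamed gene ENSG00000269749 of the same strand, which had 18.3 and 14.05 CPM in shCon and 33.4 and 17.3 CPM in shUBXN1. The sum of both genes was 27.5 and 25.5 CPM in shCon and 42.7 and 36.1 CPM in shUBXN1. ZNF780A was named after its values were seen.

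The 250 bases before the RefSeq starts of both genes (GRCh38.p14), and of ZNF264, the leading riser at the end of the long arm, show what their promoters look like. Each run is written 5′ to 3′ on the gene's strand, and the capitals mark CpG dinucleotides.
ZNF780A, chr19:40090944-40091193, minus strand: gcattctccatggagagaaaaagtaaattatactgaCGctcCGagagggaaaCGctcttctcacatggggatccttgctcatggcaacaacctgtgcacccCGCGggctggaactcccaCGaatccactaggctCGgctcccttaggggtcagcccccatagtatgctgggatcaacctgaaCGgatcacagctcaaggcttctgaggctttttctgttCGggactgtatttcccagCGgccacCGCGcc
ZNF780B, chr19:40056232-40056481, minus strand: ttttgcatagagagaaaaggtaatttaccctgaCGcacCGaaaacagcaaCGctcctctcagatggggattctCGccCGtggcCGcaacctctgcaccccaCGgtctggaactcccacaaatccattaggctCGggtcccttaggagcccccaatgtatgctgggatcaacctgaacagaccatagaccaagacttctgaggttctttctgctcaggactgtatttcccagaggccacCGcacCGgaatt
ZNF264, chr19:57191250-57191499, plus strand: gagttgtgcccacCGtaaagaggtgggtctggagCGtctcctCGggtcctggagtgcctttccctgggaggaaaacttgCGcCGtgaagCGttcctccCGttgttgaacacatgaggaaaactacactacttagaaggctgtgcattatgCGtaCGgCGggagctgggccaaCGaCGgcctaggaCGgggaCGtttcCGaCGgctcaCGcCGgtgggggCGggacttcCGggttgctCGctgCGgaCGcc
The ZNF780A and ZNF780B promoters were 79% identical over 257 alignment columns, gap columns included. They held 12 and 10 CpG dinucleotides, while that of ZNF264 held 23. Of the 249 genes, 182 had a single RefSeq promoter window of 300 bases, with a median of 20 CpG dinucleotides against 23 over protein-coding genes.

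From 43 to 51 Mb, 17 genes rose and 1 fell. ZNF221 (chr19:43951223-43967709, plus strand) had the highest log2 fold change of all 181 genes, 2.08 ± 0.31 (adjusted p = 5.07e-05, edgeR). It had 0.938 and 1.19 CPM in shCon and 5.17 and 3.84 CPM in shUBXN1, a 4.24-fold difference from a low level. ZNF114 went from 2.14 and 2.34 CPM to 7.11 and 6.75 CPM (log2 fold change 1.63), and ZNF225 from 6.86 and 6.60 CPM to 13.3 and 15.3 CPM (log2 fold change 1.08). ZNF284 had a log2 fold change of 1.28, and 44% of its exon bases are shared with an unnamed gene of the same strand, so its counts are uncertain. ZNF404 had the smallest value, 0.15 ± 0.25.

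ZNF473, which encodes a protein of the U7 snRNP machinery that processes histone transcripts, was the gene of that window that fell, from 40.8 and 39.5 CPM to 31.2 and 36.1 CPM (log2 fold change −0.25, adjusted p = 0.028, edgeR). Its call was lost with DESeq2 (adjusted p = 0.0841), total count scaling (0.101) and limma (0.14) and without shCon replicate 1 (0.131), shCon replicate 2 (0.0789) or shUBXN1 replicate 1 (0.156). ZNF428, with 1 finger and a mean of 76.9 TPM, went from 28.02 and 27.9 CPM to 33.9 and 34.2 CPM (log2 fold change 0.28, adjusted p = 0.0124, edgeR). It shares 32.1% of its exon bases with a gene on the other strand, and its adjusted p was 0.11 with the GC trend removed, 0.0564 with DESeq2, and 0.0704 and 0.136 without shCon replicate 1 and 2.

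Above 51 Mb the leading genes were ZNF264, ZNF805, ZNF211 and ZNF460, all in the last cluster. ZNF211 (chr19:57630395-57644041, plus strand) gave the cleanest example, with 7.61 and 7.66 CPM in shCon and 20.5 and 23.2 CPM in shUBXN1, whole counts in every library and no exon base shared with another gene. Its log2 fold change was 1.52 ± 0.12 (adjusted p = 1.65e-07, edgeR). ZNF264 (chr19:57191500-57222846, plus strand) went from 6.98 and 5.02 CPM to 17.5 and 19.3 CPM, a log2 fold change of 1.61 ± 0.16 (adjusted p = 8.86e-07, edgeR). ZNF805 and ZNF460, which follow it on the same strand, had log2 fold changes of 1.58 and 1.40. Counts of ZNF264, ZNF805 and ZNF460 were fractional in all 4 libraries. ZNF805 shares 13.5% of its exon bases with an unnamed gene of the same strand, and ZNF460 shares 24.6% with a gene on the other strand. The knockdown libraries of ZNF805 were at 16.2 and 10.5 CPM and those of ZNF460 at 28.8 and 19.4 CPM, so the replicates were less close than for ZNF211.

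ZNF274 and ZNF444 were among the most abundant genes and rose by less. ZNF274, the KRAB protein that recruits SETDB1 to zinc finger genes, had 49.3 and 51.6 CPM in shCon and 61.5 and 62.4 CPM in shUBXN1 (mean 45.1 TPM). Its log2 fold change was 0.30 ± 0.08 (adjusted p = 0.0039, edgeR), and the adjusted p was 0.0554 and 0.0537 without shCon replicate 1 and 2. ZNF444, a SCAN domain protein at a mean of 37.9 TPM, went from 29.0 and 30.1 CPM to 43.2 and 41.1 CPM (log2 fold change 0.51).

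The largest fall above 51 Mb was that of ZNF888 (chr19:52904415-52923470, minus strand), with 48.7 and 47.2 CPM in shCon and 25.3 CPM in both knockdown libraries. Its log2 fold change was −0.92 ± 0.08 (adjusted p = 4.43e-07, edgeR), and its counts were fractional in all 4 libraries. ZNF787, at a mean of 60.6 TPM, fell from 64.3 and 75.5 CPM to 43.8 and 47.5 CPM (log2 fold change −0.61 ± 0.09). ZNF816 had a log2 fold change of −0.53 and ZNF544 of −0.36. ZNF816 lost its call with DESeq2 (adjusted p = 0.114), total count scaling (0.0896) and limma (0.0879) and without shCon replicate 1 (0.107), shCon replicate 2 (0.0582) or shUBXN1 replicate 1 (0.223), and ZNF544 with total count scaling (0.128) and limma (0.154) and without shUBXN1 replicate 2 (0.101). ZNF471 was at 0.675 and 1.19 CPM in shCon and 1.33 and 0.598 CPM in shUBXN1, so its replicates differed more than its groups.

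**Figure D2:**
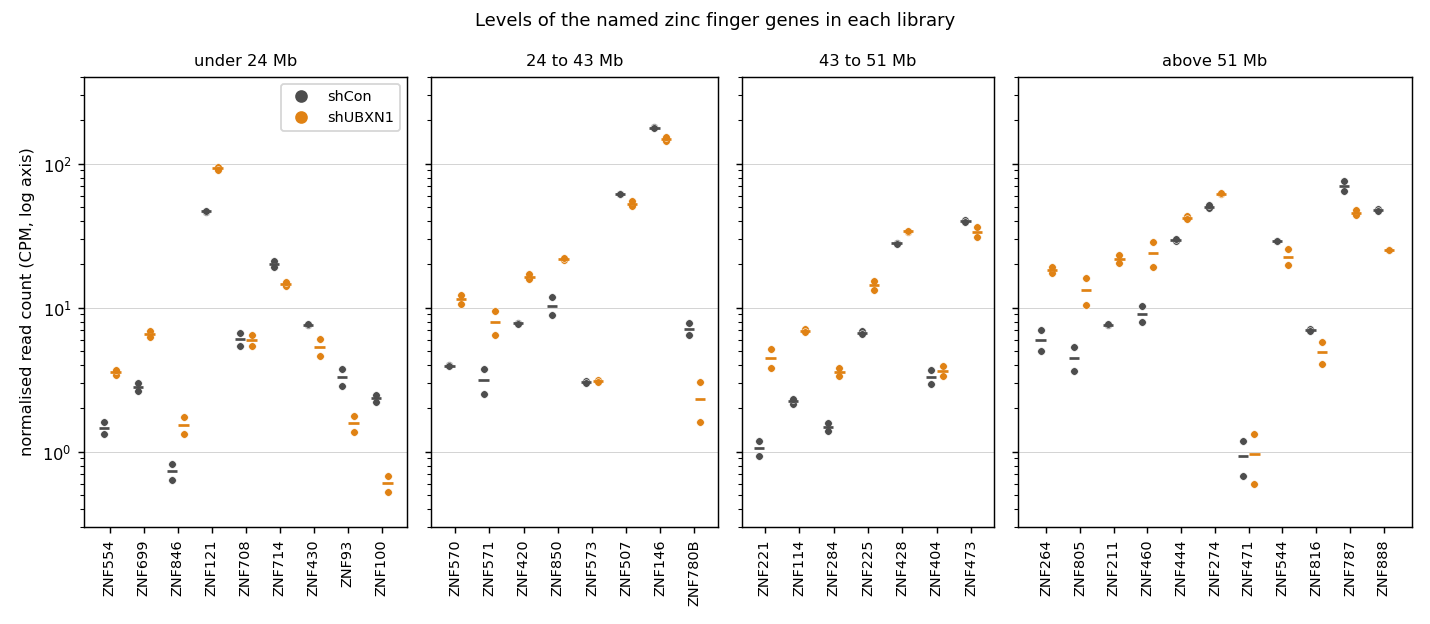
Normalised read count (CPM, log axis) of the named zinc finger genes in each library, by window and in order of log2 fold change. Grey points are the 2 shCon and orange points the 2 shUBXN1 libraries, with the group mean as a short line; ZNF146 has the highest level and fell, and the leading risers lie mostly under 20 CPM in shCon.

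The genes that rose were of every structural kind. For comparison, 28% of all genes tested were called higher and 28.2% lower. Of the 151 tested genes with a KRAB-like box, 77 were higher and 7 lower (median 0.43), and of 30 without it 14 were higher and 5 lower (median 0.29). With under 10 fingers 23 of 49 were higher and 1 lower, with 10 to 15 fingers 40 of 88 and 7, and with over 15 fingers 28 of 44 and 4. Calls were fewer among genes of low level. Below a mean log2 CPM of 2, 11 of 44 genes were called higher, whereas 45 of 82 from 2 to 4 and 35 of 55 over 4 were, with medians of 0.41, 0.50 and 0.38. Protein-coding genes of other chromosomes at these levels had 33.2%, 31.2% and 26.9% called higher, with medians of 0.47, 0.03 and −0.09, so members of low level did not exceed other genes of like level.

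The exons of these genes are poor in G and C, with a median of 43.1% against 48.6% over protein-coding genes. Members under 42% GC had a median log2 fold change of 0.39, those from 42 to 46% of 0.42, those from 46 to 55% of 0.45 and those above 55% of 0.44. The protein-coding genes of other chromosomes in the same ranges had medians of −0.09, −0.07, −0.02 and 0.11. With each library's trend on GC removed, 87 members were higher and 12 lower, with a median of 0.44. The medians of the 4 GC ranges were then 0.44, 0.45, 0.42 and 0.24. Of the 22 tested members above 55% GC, 8 were then higher and 3 lower, against 14 and 1 before.

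Many of these genes are hard to count, since they resemble each other and overlap. Of the 181 tested, 68 shared exon bases with a gene on the same strand, 28 had over 10% of their transcript in 100-base runs that also occur in another gene, and 137 had a fractional count in a library. Overlap with a gene on the other strand exceeded 10% of the exon bases in 22 of the 181, and was not used to set genes aside here. Among the 103 tested genes with no exon base shared on the same strand and under 1% in shared runs, 61 were higher and 7 lower, with a median of 0.47. The medians of these 103 genes by window were −0.02, 0.60, 0.77 and 0.39. Under 24 Mb, 12 of the 28 among them (42.9%) were higher and 3 lower, beside 28% and 28.2% over all genes. In 10 tested genes the replicates of a group differed by over 2-fold, and none of these was called. ZNF607 was one, with 5.40 and 0.809 CPM in shCon and 6.75 and 2.22 CPM in shUBXN1. Its sum with an unnamed gene of the same strand that shares its exon bases was 169 and 153 counts in shCon and 297 and 284 in shUBXN1, all whole numbers, and these sums differed far less between replicates than ZNF607 alone. ZNF28 had 1.76 and 11.7 CPM in the shCon libraries, while its sum with the overlapping ZNF468 was 29.9 and 29.1 CPM in shCon and 28.04 and 28.2 CPM in shUBXN1.

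The genes that work with KRAB zinc finger proteins, or act on the chromatin at their targets, were lower more often than higher. Of a list of 26, 25 were tested, and 3 were higher and 15 lower (median log2 fold change −0.27), beside 28% and 28.2% over all genes. All but DNMT3A had a mean log2 CPM over 4, a level at which 26.9% of the protein-coding genes of other chromosomes were higher and 40.4% lower (median −0.09). TRIM28, the KRAB corepressor, had 468.2 and 500.9 CPM in shCon and 372.6 and 424.2 CPM in shUBXN1. The groups did not overlap and its log2 fold change was −0.28 ± 0.08 (adjusted p = 0.0107, edgeR), but the adjusted p was 0.227 without shCon replicate 2. SETDB1, the H3K9 methyltransferase that TRIM28 recruits, rose from 92.6 and 99.7 CPM to 122.3 and 119.1 CPM (log2 fold change 0.33), whereas its partner ATF7IP fell (−0.50). The heterochromatin proteins CBX1 (−0.22), CBX3 (−0.41) and CBX5 (−0.31) and the deacetylases HDAC1 (−0.43) and HDAC2 (−0.34) were all lower.

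The largest falls on the list were those of UHRF1 and DNMT1, which maintain DNA methylation. UHRF1, which brings the maintenance methyltransferase to replicated DNA, had 175.1 and 186.5 CPM in shCon and 63.6 and 72.8 CPM in shUBXN1, a log2 fold change of −1.41 ± 0.08 (adjusted p = 6.91e-09, edgeR). DNMT1, that methyltransferase, went from 219.0 and 233.2 CPM to 130.8 and 144.3 CPM (log2 fold change −0.72 ± 0.08), and DNMT3B fell by 0.40 on the log2 scale. In the HUSH complex, which silences transposable elements, TASOR (−0.70) and PPHLN1 (−0.40) fell, as did MORC2 (−0.26), while MPHOSPH8 had 0.00. The methyltransferase SUV39H1 (−0.27) and the remodeller CHD3 (−0.30) were also lower, and the remodellers CHD4 (0.23) and ATRX (0.44) higher. DNMT3A, SMARCAD1, SUV39H2, EHMT1, EHMT2 and DAXX did not pass the test, and ZFP57 was at 0 in all libraries. With total count scaling CBX1 and SUV39H1 lost their calls (adjusted p = 0.069 and 0.0675, edgeR), and with limma CBX5, CHD3, DNMT3B and MORC2 did (0.0557 to 0.0752). Without shCon replicate 2 the list had 1 higher call and 10 lower, and CBX1 and SUV39H1 also lost theirs without shUBXN1 replicate 1 (0.0551 and 0.113), and CBX1 and CHD4 without shCon replicate 1 (0.0554 and 0.137). Whether these genes bear on the zinc finger genes was not tested.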

How the data were processed

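RNA-seq libraries of 2 shCon and 2 shUBXN1 MHCC97H samples were analysed, grouped by the sample labels. By the study's methods, reads were mapped to GRCh38 with Hisat2 expressed as TPM and tested with limma, whereas the submitters' processing notes list GRCh37, HISAT2 2.0.4 and StringTie 1.3.0. The kit is named differently in the methods (TruSeq) and the labels (VAHTS), and the counting tool and its use of strand are not given in the sources used here. The authors' table holds unnormalized expected counts and a length for each gene, as deposited. It gave no coordinates, so positions, exon overlaps, GC content and coding sequences came from GENCODE v44 (GRCh38), matched by gene ID (61369 of 61541, 99.7%). Promoters came from RefSeq (GRCh38.p14).

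Expected counts were rounded, filtered with filterByExpr, scaled with TMM and tested in edgeR 4.0.16 (R 4.3.3) with the quasi-likelihood test, without a block. Genes were called at a Benjamini-Hochberg adjusted p under 0.05 over the 16863 genes tested. SE is the standard error of the log2 fold change. CPM was taken on TMM-scaled library sizes, and TPM was computed from the deposited counts and lengths. Libraries held 23373700 to 27380508 counts, which with 2 per group limits precision. Replicates were not copies (chi-square per degree of freedom 3.79 in shCon, 8.37 in shUBXN1). A KRAB-like box had at least 18 of 40 residues of a consensus derived from 204 members. The linker run was the 24-base in-frame run held by more members than any other.

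Named were, in each window, the 4 members called higher and the 4 called lower with the largest changes among those with a mean log2 CPM of at least 0 and groups that did not overlap, the member with the smallest change, the 5 members with the highest TPM, ZNF274 and the called cofactors. The members and lists were chosen with earlier results of these data known. Alternatives were DESeq2 1.42.0, limma 3.58.1 on log2(TPM + 1), total count scaling, other filters, unrounded counts, a GC correction, a replicate block, the study's thresholds and leaving out each library. Clusters split at 1.5 Mb, the subsets by structure, level, GC and overlap, and the linker run were added after the data were seen.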

Additional observations from a re-analysis of the deposited data

How the results depend on the processing

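No result changed direction with a call. Among 55 named results (the named genes and the median over all genes), 60 calls were lost over the alternatives other than the fold change rule. Every replicate left out leaves 1 group with 1 library, which is assumed to vary like the others. Without 1 library each, the lower members were 7 to 14, those under 24 Mb 2 to 5, those from 24 to 43 Mb 1 to 3 and those from 43 to 51 Mb 0 to 1, while the higher cofactors were 1 to 4 and the lower ones 10 to 15. The lowest of these counts came without shCon replicate 1 (under 24 Mb), without either shCon library (all members, 24 to 43 Mb), without shCon replicate 2 (cofactors), or without shCon replicate 1, shCon replicate 2 or shUBXN1 replicate 1 (43 to 51 Mb). Higher members from 43 to 51 Mb were 12 to 16 and those under 24 Mb 9 to 14. The medians then ranged from 0.39 to 0.47 for all members, −0.0091 to 0.13 under 24 Mb, 0.52 to 0.66 from 24 to 43 Mb, 0.59 to 0.73 from 43 to 51 Mb and 0.39 to 0.49 above 51 Mb.

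Total count scaling gave 7 lower members, 0 of them from 43 to 51 Mb and 2 above 51 Mb, with medians of 0.50, 0.17, 0.69, 0.70 and 0.50 (all members, then by window). Limma on log2(TPM + 1) also gave 7, 0 and 2, with medians of 0.36, 0.13, 0.45, 0.56 and 0.37. DESeq2 called 72 members higher and 8 lower, with 0 lower from 43 to 51 Mb. Without a filter the median was 0.0277 under 24 Mb and 0.46 above 51 Mb, and with at least 10 counts in every library it was 0.15 under 24 Mb. With the thresholds of the study (a 2-fold change, p under 0.05), 1997 genes were higher and 1027 lower over all genes, 26 and 3 among members, 3 and 2 under 24 Mb, 5 and 1 from 24 to 43 Mb, 5 and 0 from 43 to 51 Mb, and 13 and 0 above 51 Mb, with 0 and 1 cofactors and 1 and 0 related zinc finger genes.

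Samples with the same replicate number deviated together only weakly (r = 0.0775), so the numbers were not taken as pairs. With 2 libraries per group, r is the same for both replicate numbers by construction, so it is a single check. With a replicate block, 96 members were higher and 15 lower, over all genes 5000 and 5023, and the median from 24 to 43 Mb was 0.62. The block changed no call of the genes named. The causes of these differences were not tested.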
